A study of Mus musculus with 8 samples.

Results

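The genes described here are 8 members of the Notch pathway, chosen by name: the receptors Notch1, Notch2 and Notch3, the nuclear partners Rbpj and Maml1, and the target genes Hes1, Dtx1 and Nrarp. All 8 were among the 47937 genes counted in mature CD8 single-positive (CD8SP) thymocytes, sorted as TCRb+ and MHC-I high from the thymus of mice aged 6 to 7 weeks. In 7 of the 8, counts were high enough to be tested, out of 14633 genes tested in all. The comparison was between 4 Ndrg3ctrl mice, with 1 floxed and 1 intact allele of Ndrg3 (Ndrg3 +/fl;Lck-cre+), and 4 Ndrg3TKO mice, in which both alleles were floxed (Ndrg3 fl/fl;Lck-cre+). Both groups carried Lck-cre, which the proximal Lck promoter switches on in early thymocytes, so the controls are T cells with 1 functional copy of Ndrg3 and not wild-type cells. Each mouse gave 1 library. The question was whether the Notch genes differ in RNA level when developing CD8 T cells lack Ndrg3.

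Notch receptors sit at the cell surface and are switched on by Delta and Jagged ligands on neighbouring cells. Ligand binding exposes the receptor to ADAM proteases and then to gamma-secretase, which frees its intracellular part to enter the nucleus, where it joins the DNA-binding protein RBPJ and a Mastermind coactivator such as MAML1 and turns on target genes. In the thymus, Notch1 signals commit incoming progenitors to the T cell lineage and carry them to the beta-selection step, after which signalling declines.

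Of the 7 members tested, 0 passed an adjusted p-value of 0.05 (quasi-likelihood test in edgeR, adjusted by Benjamini-Hochberg over all tested genes), against 1.15% of all tested genes, in the comparison without a covariate or a replicate block. The members with the largest differences were Notch3, at 459.8 ± 40.6 normalized counts in Ndrg3ctrl and 327 ± 87.2 in Ndrg3TKO, and Dtx1, at 7839 ± 919 and 6258 ± 872 (mean ± SD, n = 4 mice each). Notch1, Notch2, Rbpj and Maml1 differed by between −0.09 and 0.06 on the log2 scale, and Hes1 was at the limit of detection in both groups. Normalized counts are read counts scaled to a common library size, and a log2 fold change is always that of Ndrg3TKO over Ndrg3ctrl. The number of members that passed depended on the setting, since 1 passed with a covariate for Y-linked counts (Dtx1), without Ndrg3TKO replicate 1 (Notch3) and without Ndrg3TKO replicate 2 (Dtx1). With the replicate number as a block, a pairing that the labels do not give, 2 passed (Notch3 and Dtx1), beside 5.47% of all tested genes. An unadjusted p under 0.05 was reached by 2 of the 7 members (Notch3 and Dtx1), and by 10.9% of all tested genes. In 0 of the 7 were the normalized counts of the groups free of overlap, which held for 7.04% of all tested genes.

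**Figure D1:**
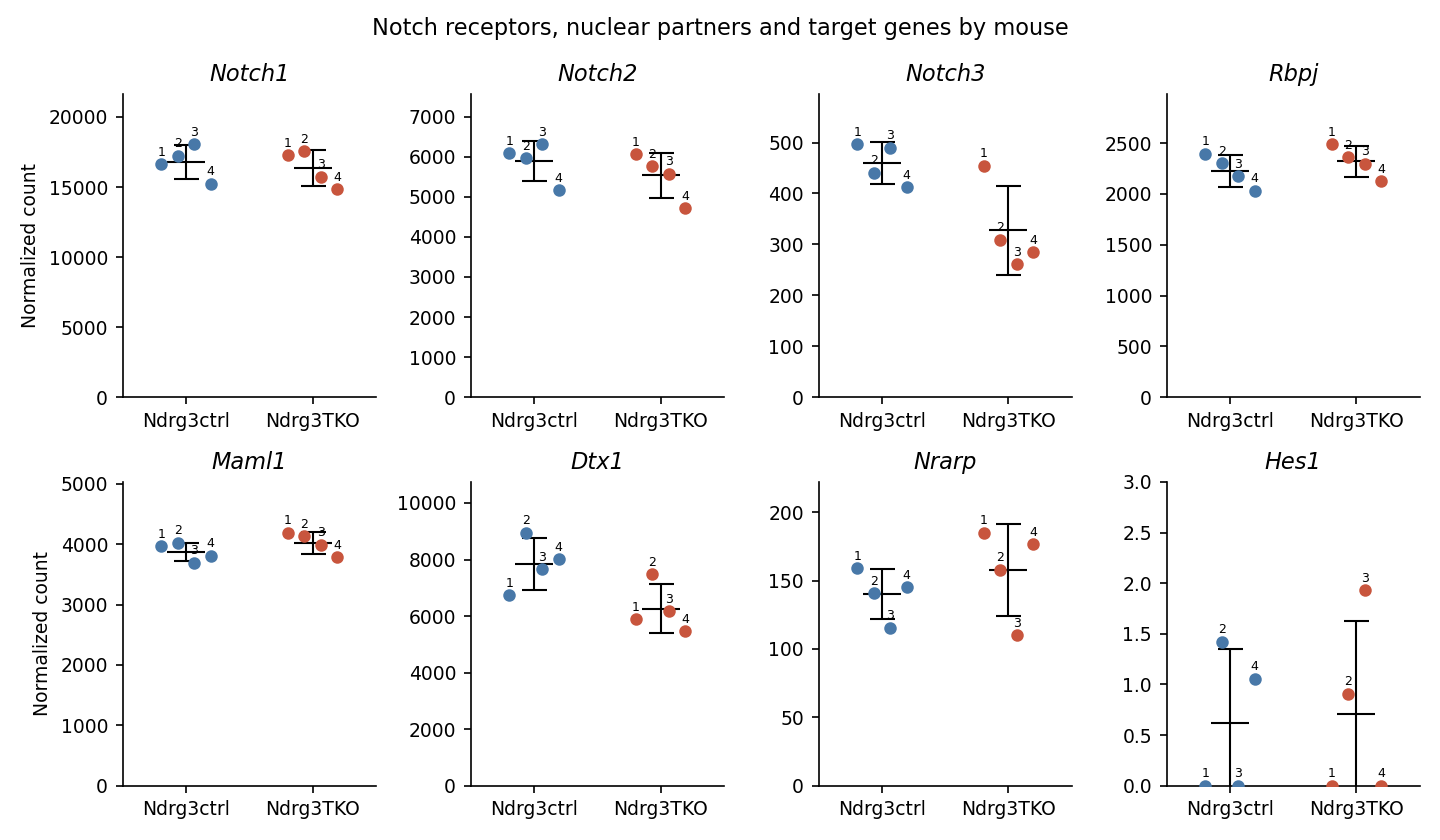
Normalized count of each of the 8 Notch genes (vertical axes start at 0), with 1 point per mouse numbered by replicate, Ndrg3ctrl in blue and Ndrg3TKO in red, and bars for the mean ± SD (n = 4 mice each). Notch3 is lower in Ndrg3TKO replicates 2 to 4 than in every Ndrg3ctrl mouse but not in replicate 1, and Hes1 stays under 2 normalized counts in all 8 mice.

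Total counts ran from 21126698 to 32668081 per library. Ndrg3, the targeted gene, was at 2336 ± 28.9 normalized counts in Ndrg3ctrl and 1500.1 ± 87.2 in Ndrg3TKO (log2 fold change −0.64, adjusted p = 1.04e-05 from edgeR with Benjamini-Hochberg adjustment), with no overlap between the groups. These counts are of the whole gene, of which the paper states that loxP sites flank a critical exon. For the protein, the paper reports efficient depletion in thymocytes by Western blot. What the remaining RNA holds was not tested. RNA of the CD8 coreceptor gene Cd8a was at 37862 to 40335 normalized counts in the 8 libraries and that of Cd4 at 7.11 to 42.7. The summed level of a marker list, in CPM (counts scaled to the library total), was 7.90 to 16.5 for double-positive and 55.5 to 78.6 for double-negative thymocytes. It was 1.37 to 3.36 for CD4 T cells, 11.1 to 15.1 for gamma delta T cells, 3.50 to 5.49 for myeloid cells and 29.6 to 45.3 for thymic epithelium, with overlap between the groups in each. In the epithelium list Ccl25 had 563 to 1341 counts per library, Epcam 39 to 77 and Krt5 at most 5. In the double-negative list Kit had 949 to 1412 counts, Dntt 297 to 767 and Il2ra 71 to 280. Ptcra, Il23r, Ncr1, Klre1, the B cell genes Ms4a1 and Pax5, Foxn1 and Krt8 had at most 3 counts in every library. The NK cell list differed in summed level, from 0.113 to 0.615 CPM in Ndrg3ctrl and from 1.47 to 2.16 in Ndrg3TKO (2-sided exact permutation p = 0.0286, the smallest 4 against 4 libraries allow, and 0.286 after Benjamini-Hochberg adjustment over 10 such values). Of its 3 genes only Klrb1c, which encodes the receptor NK1.1, was tested, at 8.83 ± 6.71 and 51.4 ± 8.66 normalized counts. Klrb1c passed the threshold (log2 fold change 2.62, adjusted p = 0.00149 from edgeR with Benjamini-Hochberg adjustment), with no overlap between the groups. Y-linked genes were counted in Ndrg3ctrl replicate 2 and Ndrg3TKO replicates 2 and 3 and were at or near 0 in the other libraries, so the groups differ in this respect.

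Notch1 encodes the receptor that drives T lineage commitment. The gene (ENSMUSG00000026923) lies on the minus strand at chr2:26457903-26516663 of GRCm38. It was counted at 16638, 17242, 18064 and 15234 normalized counts in Ndrg3ctrl replicates 1 to 4, and at 17298, 17577, 15748 and 14852 in Ndrg3TKO replicates 1 to 4. The ranges of the groups overlapped over most of their length. The log2 fold change was −0.04 with a standard error of 0.0694 and an adjusted p of 0.891 (edgeR, Benjamini-Hochberg), and its 95% interval, −12.1% to 8.04% of the control level, bounds the difference that these libraries allow. Its sign turned to 0.0068 without Ndrg3TKO replicate 4. Notch2 (ENSMUSG00000027878, plus strand, chr3:98013527-98150361), a second receptor of lymphocytes that is needed for marginal zone B cells, was at 6094, 5967, 6314 and 5165 normalized counts in Ndrg3ctrl and at 6059, 5764, 5579 and 4724 in Ndrg3TKO. Both groups have their lowest value in replicate 4, and they overlap. Its log2 fold change was −0.09 ± 0.0787 (standard error), with an interval of −16.4% to 5.70% and an adjusted p of 0.733 (edgeR, Benjamini-Hochberg).

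Notch3 is a receptor that is expressed in immature thymocytes and, when its active part is forced on in T cells, causes leukaemia. The gene (ENSMUSG00000038146) lies on the minus strand at chr17:32120820-32166852. Its normalized counts were 497, 441, 489.9 and 412 in Ndrg3ctrl replicates 1 to 4 and 455, 309, 261 and 284 in Ndrg3TKO replicates 1 to 4. Of the Ndrg3TKO mice, 3 lay below all controls and replicate 1 lay among them. The mean difference was −28.9% of the control level, with a 95% interval of −43.3% to −10.9%. As a log2 fold change this was −0.49 with a standard error of 0.150, an unadjusted p of 0.00621 and an adjusted p of 0.194 from edgeR with Benjamini-Hochberg adjustment. Without Ndrg3TKO replicate 1 it was −0.69 and passed the threshold (adjusted p = 0.00555 in edgeR), in a fit that called 0.715% of its genes. The spread was wider in Ndrg3TKO, with a coefficient of variation of 26.6% against 8.83% in Ndrg3ctrl.

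**Figure D2:**
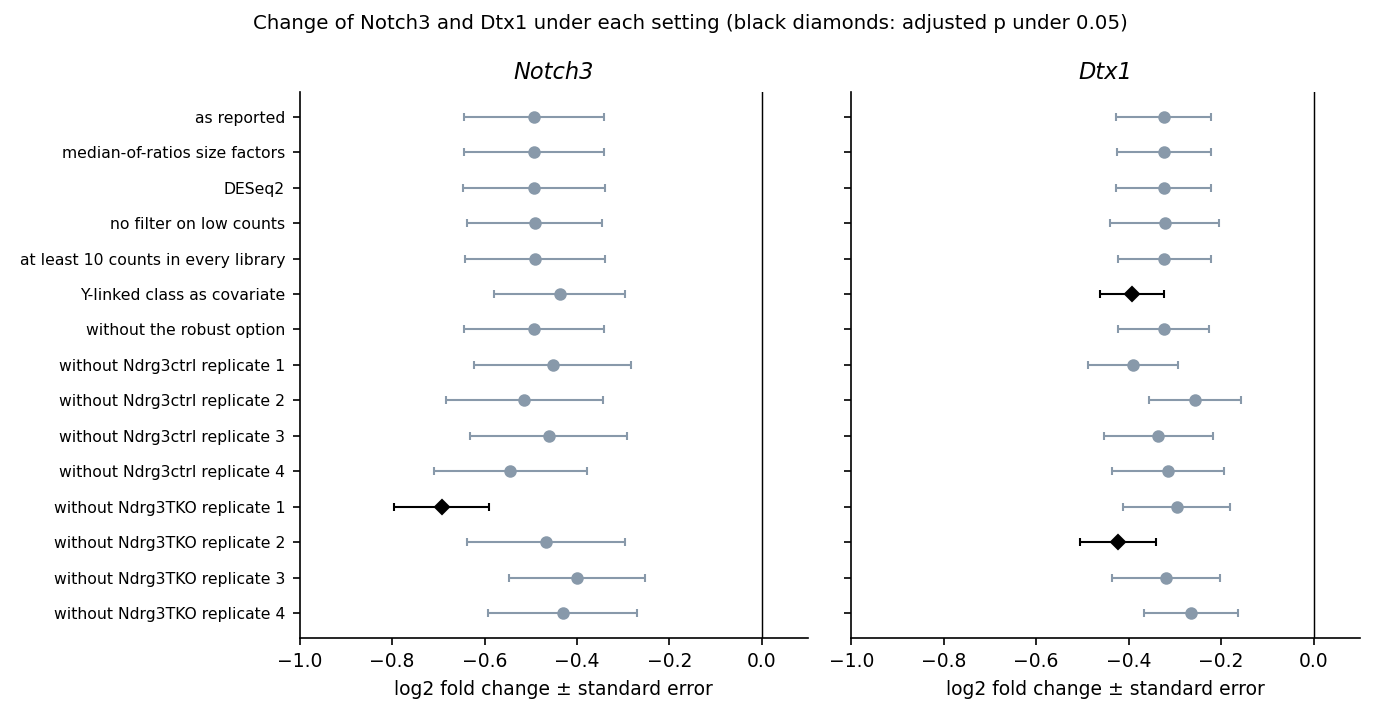
Log2 fold change of Notch3 and Dtx1 (horizontal axes, Ndrg3TKO over Ndrg3ctrl, ± standard error) in the comparison as reported and under the settings listed on the vertical axis, which leave out the replicate block. Black diamonds mark an adjusted p under 0.05, which among these Notch3 reaches without Ndrg3TKO replicate 1 and Dtx1 with the Y-linked class as a covariate and without Ndrg3TKO replicate 2, and each estimate lies below 0.

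Rbpj encodes the DNA-binding protein of the pathway, which represses target genes with corepressors until the Notch intracellular part displaces them. The gene (ENSMUSG00000039191) lies on the plus strand at chr5:53466152-53657362. Its normalized counts were 2396, 2304, 2174 and 2032 in Ndrg3ctrl and 2489, 2363, 2297 and 2125 in Ndrg3TKO. The groups overlapped over most of their range. This gave a log2 fold change of 0.06 ± 0.0630 (standard error), with an interval of −5.18% to 14.3% and an adjusted p of 0.792 (edgeR, Benjamini-Hochberg). Maml1 (ENSMUSG00000050567, minus strand, chr11:50255634-50292311), the coactivator that completes the complex, was at 3970.0, 4026, 3697 and 3809 normalized counts in Ndrg3ctrl and at 4194, 4135, 3993 and 3785 in Ndrg3TKO. Its log2 fold change was also 0.06, with a standard error of 0.0510, an interval of −3.66% to 12.1% and an adjusted p of 0.745 (edgeR, Benjamini-Hochberg). Maml1 had the smallest spread between mice of the members, at 3.88% and 4.51% of the mean.

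Dtx1 encodes Deltex1, an E3 ubiquitin ligase that is induced by Notch and acts back on the pathway. The gene (ENSMUSG00000029603) lies on the minus strand at chr5:120680202-120711927. Its normalized counts were 6728, 8952, 7660.5 and 8016 in Ndrg3ctrl and 5884, 7491, 6185 and 5473 in Ndrg3TKO. Ndrg3TKO replicates 1, 3 and 4 lay below every control, and replicate 2 lay above the lowest one. The difference was −20.1% of the control level, with an interval of −31.7% to −6.65%. The log2 fold change was −0.32 with a standard error of 0.103, an unadjusted p of 0.00882 and an adjusted p of 0.227 (edgeR, Benjamini-Hochberg). In each group the highest Dtx1 value was in replicate 2, a library with Y-linked counts. In the libraries with such counts (1 Ndrg3ctrl and 2 Ndrg3TKO) the log2 ratio of the group means was −0.39, and in those without (3 and 2) it was −0.40. With the class of Y-linked counts as a covariate the log2 fold change was −0.39 and passed the threshold (adjusted p = 0.00729 in edgeR), in a fit that called 2.99% of all genes. It also passed without Ndrg3TKO replicate 2, at −0.42 (adjusted p = 0.0260 in edgeR, with 1.07% of genes called). Notch3 gave −0.63 in the libraries with Y-linked counts and −0.34 in those without, and had an adjusted p of 0.121 with the covariate in edgeR.

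Nrarp encodes a small ankyrin repeat protein that is induced by Notch and dampens the signal by binding the nuclear complex. The gene (ENSMUSG00000078202) lies on the plus strand at chr2:25180758-25183339. Its normalized counts were 159, 141, 116 and 145 in Ndrg3ctrl and 185, 158, 110.2 and 177 in Ndrg3TKO. The Ndrg3TKO mice held both the highest and the lowest value. Its log2 fold change was 0.17 ± 0.166 (standard error), with a wide interval of −12.0% to 43.9% and an adjusted p of 0.764 (edgeR, Benjamini-Hochberg). In the libraries with Y-linked counts the log2 ratio of the group means was −0.07, and in those without it was 0.37. Hes1 (ENSMUSG00000022528, plus strand, chr16:30064384-30067796) encodes a repressor of the bHLH family and is the most widely used readout of Notch activity. Its raw counts were 0, 1, 0 and 1 in Ndrg3ctrl and 0, 1, 2 and 0 in Ndrg3TKO, all under the 3 counts that a count of 0 allows in a library. No ratio of the groups can be given at this depth. A direction could be given for neither Nrarp nor Hes1. In bulk RNA, fewer cells that express a gene and less of its RNA per cell cannot be told apart, which applies to Notch3 and Dtx1 in particular.

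Some members share exonic sequence with other annotated genes, and how the counting handled strand is not stated in the sources used here, although the library kit keeps strand. The antisense gene Gm38287 overlaps an Nrarp exon by 1487 bases and had 2 to 5 counts in Ndrg3ctrl and 7 to 19 in Ndrg3TKO, at most 9.84% of the Nrarp count of the same library. The other overlapping genes, of Notch1, Notch2, Notch3 and Maml1, had at most 108 counts and at most 2.03% of the member's count.

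To compare members with each other, levels were set per kilobase of exon, as CPM per kilobase. Dtx1 and Notch1 stood highest, at 51.4 ± 6.03 and 40.8 ± 2.90 CPM per kilobase in Ndrg3ctrl (SD, n = 4). Their mean over all 8 mice lay above that of 93.6% and 92.2% of the tested genes. Maml1 followed at 24.2 ± 0.941, Notch2 at 18.9 ± 1.61 and Rbpj at 6.03 ± 0.429 CPM per kilobase, and the mean of Rbpj over all mice lay above 50.2% of the tested genes. Notch3 and Nrarp stood lowest of the tested members, at 1.96 ± 0.173 and 1.88 ± 0.243 CPM per kilobase, and Hes1 lay at 0.0105 ± 0.0124. Neighbours in this order did not overlap in Ndrg3ctrl except Notch3 and Nrarp. In Ndrg3TKO, Dtx1 (41.0 ± 5.72) and Notch1 (39.7 ± 3.14) overlapped as well, and the order of Notch3 (1.40 ± 0.372) and Nrarp (2.11 ± 0.449) was the opposite. Mature CD8SP thymocytes of both genotypes therefore held abundant RNA for Notch1 and Dtx1, and Hes1 RNA at the limit of detection. Exon lengths are those of all annotated transcripts joined, 12750 bases for Rbpj, so that a gene with many alternative exons has its level understated.

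**Figure D3:**
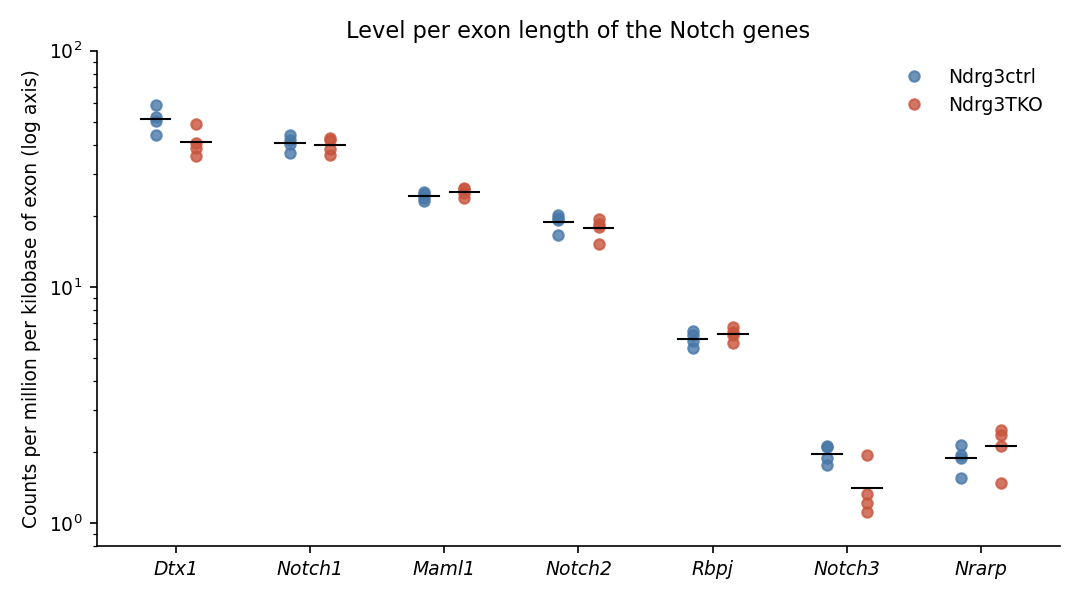
Level of 7 Notch genes in CPM per kilobase of exon (vertical log axis), ordered by the Ndrg3ctrl mean, with 1 point per mouse and lines for group means (n = 4 each). Dtx1 and Notch1 lie between 35.9 and 58.7 in all mice and Notch3 and Nrarp between 1.11 and 2.48, and Hes1 is left out because 4 of its 8 values are 0.

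Among the 4 receptors, Notch1 made up 66.1% ± 0.780 of the summed level per kilobase in Ndrg3ctrl and 67.5% ± 1.18 in Ndrg3TKO, and Notch2 30.6% ± 0.643 and 30.1% ± 1.07 (SD, n = 4). Notch3 made up 3.19% ± 0.175 and 2.36% ± 0.493. Notch4, which is mainly a receptor of blood vessels, accounted for 0.118% ± 0.0075 and 0.113% ± 0.0362. The composition of receptor RNA thus stayed dominated by Notch1, with Notch2 second, in each mouse.

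Across the 8 libraries, with the group means removed, the level of Notch1 was compared with those of its possible readouts. Pearson's r was 0.414 with Dtx1 (Spearman's rho 0.190), −0.0790 with Nrarp (rho −0.214) and 0.592 with Notch3 (rho 0.643). None of these 3 relations passed an exact permutation test within groups (unadjusted p = 0.368, 0.889 and 0.153 for r, and 0.677, 0.635 and 0.104 for rho, with the smallest adjusted p at 0.312). Without the 2 libraries farthest from the Notch1 median (replicate 4 of each group), r was 0.396, 0.340 and 0.505. The relation with Hes1 could not be computed from its counts, and the classes of Y-linked counts hold too few libraries for values of their own. The genes whose pattern over the 8 libraries was most like that of Notch3, again with group means removed, were N4bp2, Pip5kl1, Asap2, Erc1 and Snord70, with r between 0.961 and 0.993, a description of the highest values among all tested genes. Of these, N4bp2 had a log2 fold change between the groups of 0.07, and none passed the test. Notch3 itself lay farthest from its group mean in Ndrg3TKO replicate 1, at 455 normalized counts against 261 to 309 in the other Ndrg3TKO mice. These r values can rest largely on that library, and r without it was not computed.

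The rest of the pathway was read from a list of 62 genes in 9 roles, of which 52 were tested. Of these 52, 1 rose and 1 fell in Ndrg3TKO (3.85% in all), where 0.793% of all tested genes rose and 0.355% fell. The groups did not overlap in 6 of the 52 (11.5%, beside 7.04% of all tested genes), Gata3, Neurl3, Numbl, Mib2, Dtx4 and Nedd4, of which the last 4 were named after their values were seen. The median log2 fold change was 0.02 over these 52 genes and −0.04 over the 7 members, beside −0.0033 over all tested genes.

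Of the ligands, Dll1, Dll3, Dll4 and Jag1 had at most 10 counts in any library and were not tested. Jag2 was the one ligand with RNA to test, at 107 ± 22.9 normalized counts in Ndrg3ctrl and 110.1 ± 6.68 in Ndrg3TKO (log2 fold change 0.04, adjusted p = 0.952 in edgeR). The 4th receptor, Notch4, was at 16.9 ± 1.40 and 15.2 ± 3.56 normalized counts (log2 fold change −0.15, adjusted p = 0.891 in edgeR). None of the 6 genes that glycosylate or precleave the receptors passed. Of these, Lfng, the Fringe enzyme that makes Notch1 more sensitive to Delta ligands, differed most. It was at 11997, 13094, 11189 and 10977 normalized counts in Ndrg3ctrl and at 10106, 11987, 10521 and 9470 in Ndrg3TKO (log2 fold change −0.17 ± 0.0752 standard error, adjusted p = 0.445 in edgeR). The groups overlapped through Ndrg3TKO replicate 2, and with the Y-linked class as a covariate Lfng passed, at −0.22 (adjusted p = 0.0455 in edgeR).

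The promoters of Notch3, Nrarp and Lfng are shown as examples of windows without and with the core letters that RBPJ binds. RefSeq promoters (GRCm38.p6) were given for 7 of the 8 members, without Hes1, and the search covered the 250 bases before the start on both strands. The letters searched were TGGGAA, which read TTCCCA on the other strand, and the longer GTGGGAA, which contains them. Of 32851 promoters of the same length, 21.6% held the first and 5.42% the second. Capitals mark each match, and each sequence runs 5′ to 3′ on the strand of the gene.
Notch3, chr17:32166891-32167140, minus strand: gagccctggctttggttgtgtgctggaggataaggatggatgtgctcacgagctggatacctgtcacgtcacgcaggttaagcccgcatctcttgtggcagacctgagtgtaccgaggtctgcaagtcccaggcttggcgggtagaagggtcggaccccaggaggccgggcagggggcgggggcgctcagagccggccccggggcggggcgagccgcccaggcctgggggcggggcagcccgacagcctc
Nrarp, chr2:25180508-25180757, plus strand: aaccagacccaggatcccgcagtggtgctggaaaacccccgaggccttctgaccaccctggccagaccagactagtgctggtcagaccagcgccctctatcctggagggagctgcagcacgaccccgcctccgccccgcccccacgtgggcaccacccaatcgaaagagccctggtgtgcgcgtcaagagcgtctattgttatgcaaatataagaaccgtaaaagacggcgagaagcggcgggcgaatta
Lfng, chr5:140607091-140607319, plus strand, without the last 21 bases, which lie in an annotated exon: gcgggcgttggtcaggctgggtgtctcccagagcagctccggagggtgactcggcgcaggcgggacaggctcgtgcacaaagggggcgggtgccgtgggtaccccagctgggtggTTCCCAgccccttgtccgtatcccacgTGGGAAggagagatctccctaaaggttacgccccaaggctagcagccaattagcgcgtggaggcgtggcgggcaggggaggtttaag
Lfng held 2 matches, starting 135 and 108 bases before its start, the nearer of them within GTGGGAA. Notch3 and Nrarp held no match, nor did the windows of Notch1, Notch2, Maml1, Dtx1, Gata3 and Neurl3. Dtx1 and Notch1, the highest members per kilobase, held none, while Lfng, with 2, stood higher, at 163 ± 13.2 CPM per kilobase in Ndrg3ctrl. Whether a match goes with RNA level was not tested, and the genes searched are too few to show it. Rbpj held 2 matches before the first of its listed starts (149 and 65 bases before it) and 1 before the second. Of the windows not shown here, those of Dtx1, of the second start of Rbpj and of Gata3 lie wholly in annotated exons. The RefSeq start of Notch3 lies outside the gene as GENCODE places it, up to 32166852, so the window shown does not reach that gene. G and C made up 68.8% of the Notch3 window, 61.2% of that of Nrarp and 66.0% of that of Lfng, where the median of all promoters was 52.4%. A match to these letters is a description of the sequence and not a binding site, and a window without them says nothing of RBPJ elsewhere at the gene.

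Of the 8 tested genes of the proteases and gamma-secretase, none passed. Aph1b, a gamma-secretase subunit gene at low level, had the largest difference, from 35.0 ± 2.87 to 23.6 ± 9.48 normalized counts (log2 fold change −0.57 ± 0.270 standard error, adjusted p = 0.464 in edgeR). Its Ndrg3TKO values were 37.4, 21.8, 16.4 and 18.7, so replicate 1 stood apart from the others here as in Notch3. Of the 7 nuclear coactivators besides Maml1, none passed. Kat2a, a histone acetyltransferase, was at 2998 ± 256 and 2670.5 ± 172 normalized counts (log2 fold change −0.17, adjusted p = 0.363 in edgeR), and passed with the Y-linked class as a covariate, at −0.21 (adjusted p = 0.0314 in edgeR). The 7 RBPJ corepressor genes, among them Cir1 at 414 ± 43.1 and 372 ± 8.38 (log2 fold change −0.15, adjusted p = 0.587 in edgeR), did not pass either. In the HES and HEY family, Hes5, Hes7 and Hey2 had at most 4 counts in any library. Hey1 was at 20.1 to 31.4 normalized counts in Ndrg3ctrl and 11.5 to 24.9 in Ndrg3TKO (log2 fold change −0.39, adjusted p = 0.673 in edgeR), and none of the 3 tested genes passed. With the Y-linked class as a covariate, 5 of the 52 genes passed, beside 2.99% of all tested genes: Gata3, Neurl3, Lfng, Kat2a and Myc, the last named after its values were seen.

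Neurl3 fell in Ndrg3TKO. It encodes an E3 ubiquitin ligase of the Neuralized family, whose best known members promote the uptake of Notch ligands into the signal-sending cell. Its normalized counts were 2147, 2110.3, 1981 and 2206 in Ndrg3ctrl and 1477, 1582, 1693 and 1810.0 in Ndrg3TKO. The groups did not overlap. Its log2 fold change was −0.36 with a standard error of 0.0643 and an adjusted p of 0.0112 (edgeR, Benjamini-Hochberg). Without Ndrg3ctrl replicate 1 it was −0.35 and missed the threshold narrowly (adjusted p = 0.0527 in edgeR), in a fit that called 0.674% of its genes. It was the only one of 12 tested genes of trafficking and turnover to pass. Of the other 11, Numbl, Mib2, Dtx4 and Nedd4 had higher values in every Ndrg3TKO mouse than in every control, with log2 fold changes of 0.34, 0.12, 0.60 and 0.13 and adjusted p-values of 0.278, 0.482, 0.153 and 0.342 (edgeR, Benjamini-Hochberg).

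Gata3 rose in Ndrg3TKO. It encodes a zinc finger transcription factor that Notch signals induce in early T cell progenitors and that later favours the CD4 lineage. Its normalized counts were 1799, 1725, 1643 and 1618 in Ndrg3ctrl and 2601, 2331, 2379.9 and 2205 in Ndrg3TKO. Every Ndrg3TKO mouse lay above every control. The log2 fold change was 0.49 with a standard error of 0.0594 and an adjusted p of 0.000525 (edgeR, Benjamini-Hochberg), and it passed under each of the 15 other settings tried, at 0.44 to 0.52. Of the 6 other tested genes that Notch is known to act on in early T cell development, none passed, and Ptcra, the pre-T cell receptor alpha gene, had at most 3 counts in any library. Tcf7, which encodes TCF1, was at 477 CPM per kilobase over all mice and had a log2 fold change of 0.02.

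**Figure D4:**
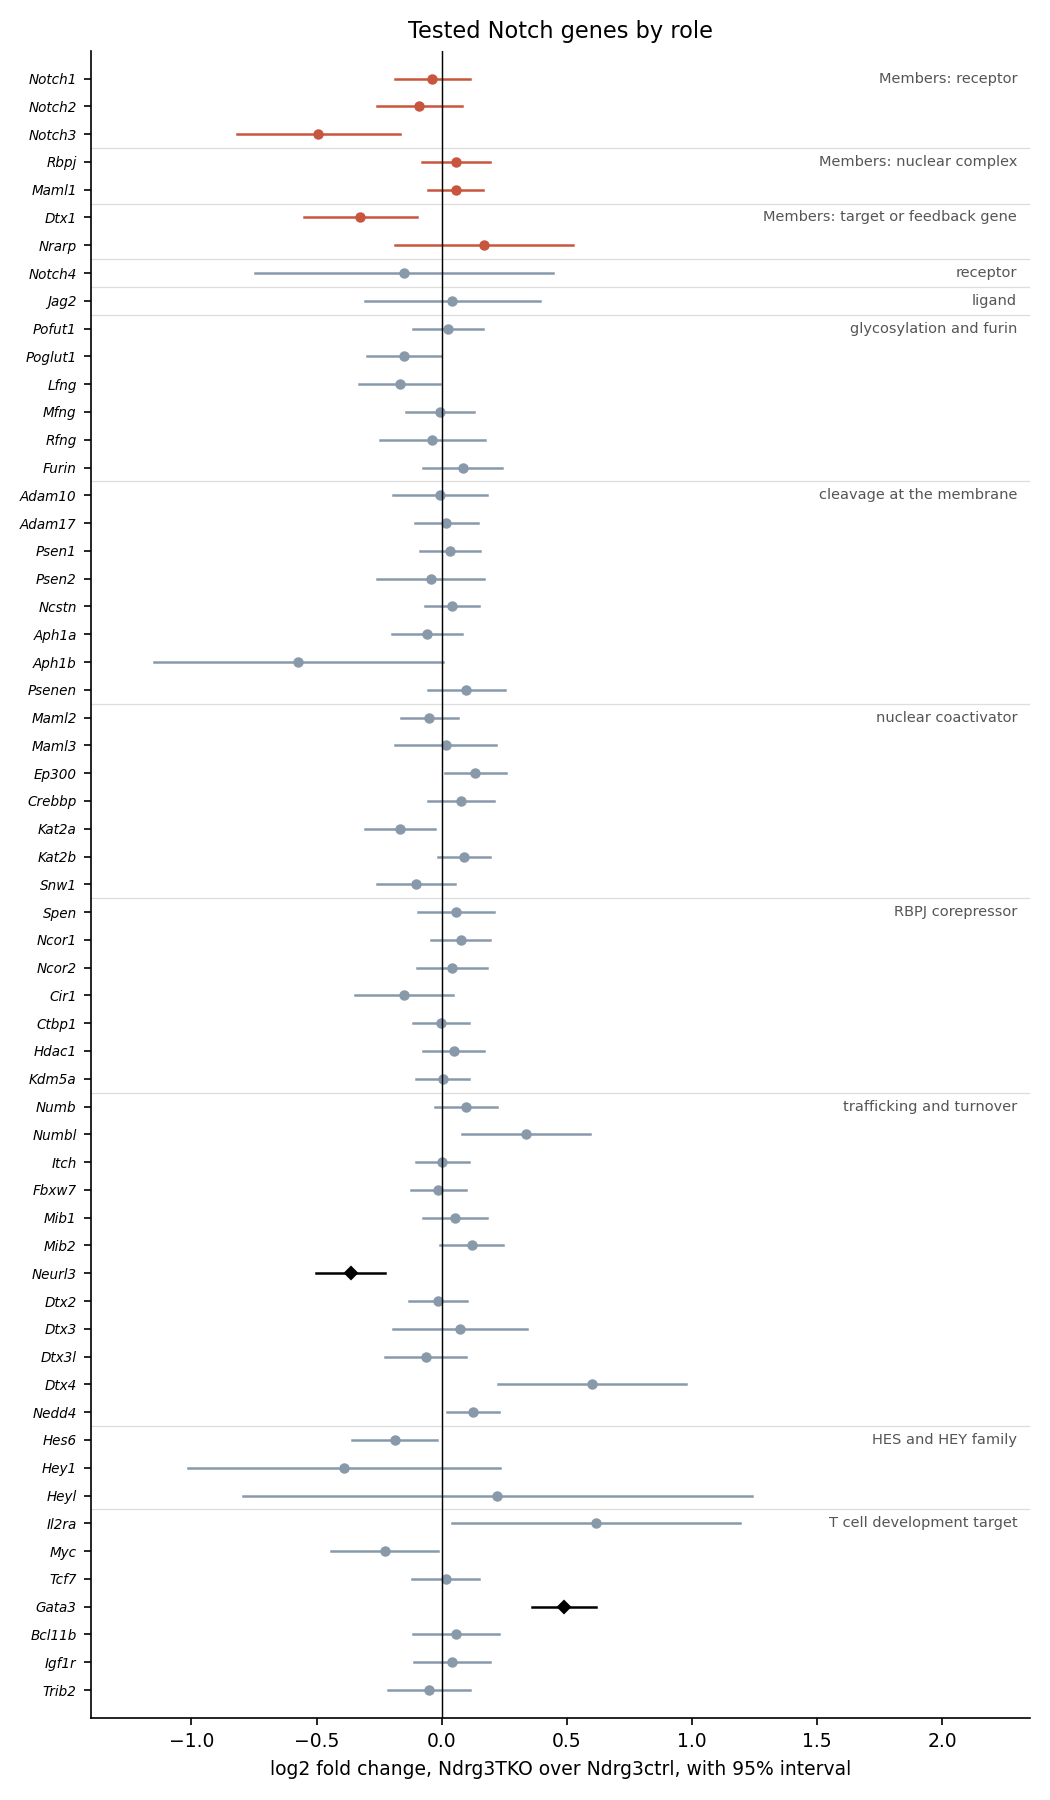
Log2 fold change of Ndrg3TKO over Ndrg3ctrl with its 95% interval (horizontal axis) for the 7 tested members in red and the 52 other tested Notch genes in grey, by role. Black diamonds mark the genes with an adjusted p under 0.05, Gata3 above 0 and Neurl3 below 0, and among the members the intervals of Notch3 and Dtx1 alone exclude 0.

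Genes of late thymocyte maturation, which the mature CD8SP marker list holds, moved in the same direction as Notch3 and Dtx1 without passing. Log2 fold changes were −0.26 for Klf2, −0.19 for S1pr1 and −0.26 for Ccr7, with adjusted p-values of 0.130, 0.203 and 0.135 (edgeR, Benjamini-Hochberg). Cd3e, Cd8a, Cd8b1, Trac and Trbc2, the T cell receptor complex and coreceptor genes of the list, had differences between −0.03 and 0.11. Dntt, a gene of immature thymocytes, was at 450.4 ± 61.2 and 615 ± 83.8 normalized counts (log2 fold change 0.45, adjusted p = 0.0783 in edgeR), with no overlap between the groups. Whether the stage of the sorted cells has a part in the values of Notch3, Dtx1, Gata3 or Neurl3 was not tested.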

How the data were processed

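RNA of sorted CD8SP thymocytes was sequenced from 8 mice, 1 library each, after RNA isolation and a stranded total RNA library kit with depletion of ribosomal RNA. Per the paper's methods and the submitters' processing notes, the authors trimmed reads with cutadapt, aligned them to GRCm38.p4 (GENCODE release M9) with STAR, counted them per gene with featureCounts and deposited raw counts that are not normalized. Strand and multi-mapping settings are not given in the sources used here. Groups and replicate numbers came from the sample labels, which call the replicates biological.

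Symbols, positions and exon lengths came from GENCODE M21 (GRCm38), which matched 98.7% of the 47937 identifiers. In edgeR 4.0.16 (limma 3.58.1, R 4.3.3), low counts were removed by filterByExpr, libraries were scaled by TMM, and the groups were compared by the quasi-likelihood F test (glmQLFit with the robust option, then glmQLFTest), with a threshold of 0.05 on p-values adjusted by Benjamini-Hochberg over the 14633 tested genes. A standard error is the size of the log2 fold change over the square root of F, and intervals are 95%. Normalized counts are counts over the TMM-scaled library size times the mean library total. Correlations used log2 CPM with a prior count of 2. The relation of Notch1 with Hes1, also planned, could not be computed. Single values per library were compared by exact permutation over 70 splits. Libraries of a group differed by 7.22 to 24.2 in chi-square per gene, so none was a copy. Limits from counts cover counting error only, since PCR copies were not told apart by molecular identifiers.

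Settings varied were the size factors, DESeq2 1.42.0, the filter, the robust option, a replicate block, a covariate for libraries with over 10 CPM of 4 Y-linked genes, and each library left out. The members and gene lists were chosen with earlier results of these data known. Results that rest on some of the marker genes are not reported here. Named were all members, Ndrg3, the markers, genes past the threshold in each role or else the one with the largest change, and the 5 genes most like the member with the smallest p.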

Additional observations from a re-analysis of the deposited data

Results flagged for a closer look

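Of 36 groups of 4 libraries examined among the named genes, 1 held a library far from the others by Dixon's test, and chance gives about 1 in 20 groups. Cir1, a corepressor gene of RBPJ, was at 349.8 normalized counts in Ndrg3ctrl replicate 3 and at 431 to 442 in the other 3 controls. The gap to the nearest control was 0.876 of the range of the group, above the critical value for 4 samples. Groups of 4 have little power to single out a library by this test.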

How the results depend on the processing

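The number of genes past the threshold, 168 as reported, was 306 with DESeq2, 274 with no low-count filter, 437 with the Y-linked class as a covariate and 90 to 158 with each library left out. The number of members past it, 0 as reported, was 1 with the covariate and 0 to 1 with each library left out. The number of other Notch pathway genes past it, 2 as reported, was 5 with the covariate and 1 to 2 with each library left out. Both groups carry the replicate numbers 1 to 4 in the labels. Same-numbered libraries correlated at −0.0550 to 0.415 after removal of group means, over 0.1 in 3 of 4 pairs, and 6 of 8 libraries correlated best with their own number, a hint of pairing that the labels do not give. The column headers of the counts are numbers that fall in runs, each with both genotypes. Replicate 1 is in the first run, replicates 2 and 3 share the next, and replicate 4 is in the last. What the runs stand for is not stated, and a fit by run was not made. Every library with Y-linked counts lies in the run of replicates 2 and 3, where Ndrg3ctrl replicate 3 alone lacks such counts. A difference by Y-linked class and one by run can therefore hardly be told apart, also in the fit with the covariate. Because pairing was to be accepted only with every pair over 0.1, the comparison as reported has no block. With the number as a replicate block, 800 genes, 2 members (Notch3, adjusted p = 0.00739, and Dtx1, adjusted p = 0.000754, in edgeR) and 6 other pathway genes passed. With each library left out, the log2 fold change of Notch1 was −0.082 to 0.0068, above 0 without Ndrg3TKO replicate 4, and that of Jag2 was −0.088 to 0.15, below 0 without Ndrg3ctrl replicate 1. Of 105 values of members under other settings, 99 kept direction and side of the threshold, 5 passed newly and 1 turned. Of 135 values of the other named pathway genes, 129 kept both. The log2 fold change was −0.69 to −0.40 for Notch3 and −0.42 to −0.26 for Dtx1. With DESeq2 the adjusted p was 0.0614 for Notch3 and 0.0689 for Dtx1. The cause of these differences was not tested. At these depths Hes1 and 10 other pathway genes could not be tested.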
